A study of Mus musculus with 6 samples.

Results

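The 35 genes described here encode the transcription factor TFE3 and its relatives, folliculin and its FNIP partners, the Rag GTPases and the Ragulator complex, and a set of lysosomal and autophagy proteins. They were chosen by name for their known roles, with earlier results of these data known, from the 24736 genes of the deposited table, and 34 of them had enough counts to be tested. The RNA came from 3 biological replicates of WT mouse ESCs (0 h) and 3 of EpiLCs, epiblast-like cells that had differentiated for 48 h. The ESCs belong to the XY HM1 TetON line, which is the parental line of the study and was the source of all 6 libraries. They were kept on inactivated mouse embryonic fibroblasts, with LIF at 1000 U/ml and 10% serum in the medium. The EpiLCs were grown from the same line on gelatin, without serum, in N2/B27-based medium to which bFGF (10 ng/ml) and LGK974 (5 µM) were added, the latter an inhibitor of WNT secretion. The comparison asks how the RNA of this pathway differed between naive-like and post-implantation-like pluripotent cells, and medium, feeders and time changed together between the groups.

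TFE3, TFEB, MITF and TFEC form the MiT/TFE family of basic helix-loop-helix leucine zipper factors, which bind E-box and M-box DNA and switch on lysosomal and autophagy genes. When amino acids are plentiful, the Rag GTPases, held on the lysosome by Ragulator, recruit these factors and mTORC1, and phosphorylated factors stay in the cytoplasm. Folliculin, bound to FNIP1 or FNIP2, acts on RagC and RagD in this step, and in mouse ESCs its loss keeps TFE3 in the nucleus, where TFE3 helps to maintain Esrrb expression and hinders exit from the naive state. RNA levels do not report where a protein is located.

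The libraries held between 16967741 and 35096210 expected counts. Naive markers were summed at 1968 to 2618 TPM (a level scaled for transcript length and for the library's total) in ESCs and at 59.2 to 84.1 TPM in EpiLCs, and 5 of 5 post-implantation epiblast markers rose. Fibroblast markers were present and uneven in the ESC libraries: the 14 markers reached a sum of 437 TPM in ESC replicate 1, 2196 TPM in replicate 2 and 156 TPM in replicate 3, against 88.2 to 103 TPM in EpiLCs, and 7 of the 13 markers tested fell. ESC replicate 2 therefore stands apart, with the collagen gene Col1a1 at 489 TPM against 90.5 and 28.3 TPM in ESC replicates 1 and 3. Fibroblasts have lysosomes too, and values without this library are given for each role below. The culture methods describe a step in which feeders were left to adhere to plastic and the ESCs were taken from the supernatant before differentiation. In bulk RNA, fewer cells of a type and less RNA per cell cannot be told apart. Summed primitive endoderm markers ranged from 144 to 239 TPM in ESCs and from 86.6 to 107 TPM in EpiLCs, with 6 of 10 markers lower and 1 higher. Macrophages, another cell type rich in lysosomes, had markers summed at 0.360 to 1.44 TPM across all 6 libraries, and their markers Adgre1 and Tyrobp were at 0 in each library.

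Of the 34 genes tested, 4 were higher and 17 lower in EpiLCs at the adjusted p threshold of 0.05 (edgeR's quasi-likelihood test, Benjamini-Hochberg adjustment over 14468 genes). Among all genes tested 22.6% were higher and 22.8% lower, 45.4% in either direction, against 11.8% higher and 61.8% in either direction among these genes. The TPM values of the groups did not overlap for 26 of the 34 genes, and for 59.5% of all tested genes. The median log2 fold change of the 34 genes was -0.37, whereas that of all genes tested was -0.0017. A fall of more than 1 on the log2 scale was reached by 6 of them (11.5% of all genes) and a rise of more than 1 by 1 of them (8.78% of all genes). The genes that fell were the factors Tfeb and Mitf, folliculin and Fnip1, most lysosomal enzymes, 3 membrane proteins and 2 autophagy genes, and those that rose were Tfe3 and 3 Rag genes. Without ESC replicate 2, 17 were lower and 5 were higher, and the median was -0.24. DESeq2 called 21 lower and 4 higher. The part of fibroblast RNA in the differences was not tested.

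**Figure D1:**
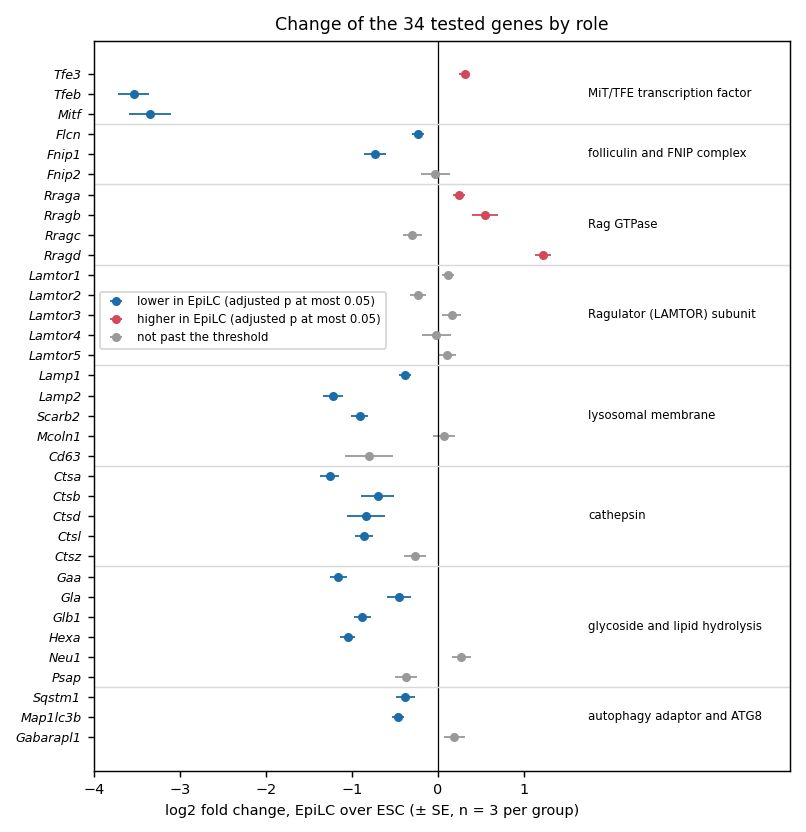
Log2 fold change of each of the 34 tested genes, EpiLC over ESC, with its standard error (n = 3 per group) on the x axis and genes grouped by role on the y axis. Blue genes were lower, red genes higher and grey genes not past the threshold: Tfeb (-3.54) and Mitf (-3.35) lie far to the left, and Rragd (1.22) is the gene farthest to the right.

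The MiT/TFE factors changed in opposite directions. Tfe3 (chromosome X, 7762530 to 7775202 on GRCm38, the assembly also called mm10) was at 78.1, 83.6 and 84.8 TPM in the ESC libraries (replicates 1, 2 and 3, in that order here and below) and at 106, 108 and 104 TPM in their EpiLC counterparts. Each EpiLC library was above each ESC library, and the log2 fold change was 0.31 (standard error 0.06, adjusted p = 0.00637), a 1.24-fold rise.

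Tfeb (chromosome 17, 47737037 to 47792416), the family member best known as a regulator of lysosome formation, was at 30.6, 35.4 and 41.8 TPM across the ESC replicates against 2.82, 3.18 and 3.80 TPM across the EpiLC replicates. It fell 11.6-fold (log2 fold change -3.54, standard error 0.18, adjusted p = 5.89e-05), and 2.07% of all tested genes had a lower log2 fold change. Mitf (chromosome 6, 97807002 to 98021360), which is known for its role in melanocytes, was at 5.40, 5.61 and 8.24 TPM in ESCs and at 0.640, 0.710 and 0.570 TPM in EpiLCs. Its log2 fold change was -3.35 (standard error 0.24, adjusted p = 1.58e-04), with no overlap between the groups. Tfec, a factor best known from macrophages, was at 0 to 0.220 TPM, with between 0 and 3 counts per library, and was not tested.

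As levels per length, Tfe3 made up 68.4%, 66.9% and 62.9% of the summed TPM of the family in the ESC replicates and 96.8%, 96.4% and 95.9% in the EpiLC replicates. The share of Tfeb was 28.7% ± 2.09 in ESCs and 2.98% ± 0.489 in EpiLCs (SD, n = 3). The share of Mitf was 5.11% ± 0.874 and 0.583% ± 0.0541 (SD, n = 3). The summed level of the family was 125 ± 10.3 TPM in ESCs compared with 109.7 ± 1.84 TPM in EpiLCs (SD, n = 3), and Tfe3 had the highest level of the family in each of the 6 libraries. Without ESC replicate 2 the log2 fold changes were 0.32 for Tfe3, -3.55 for Tfeb and -3.45 for Mitf.

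**Figure D2:**
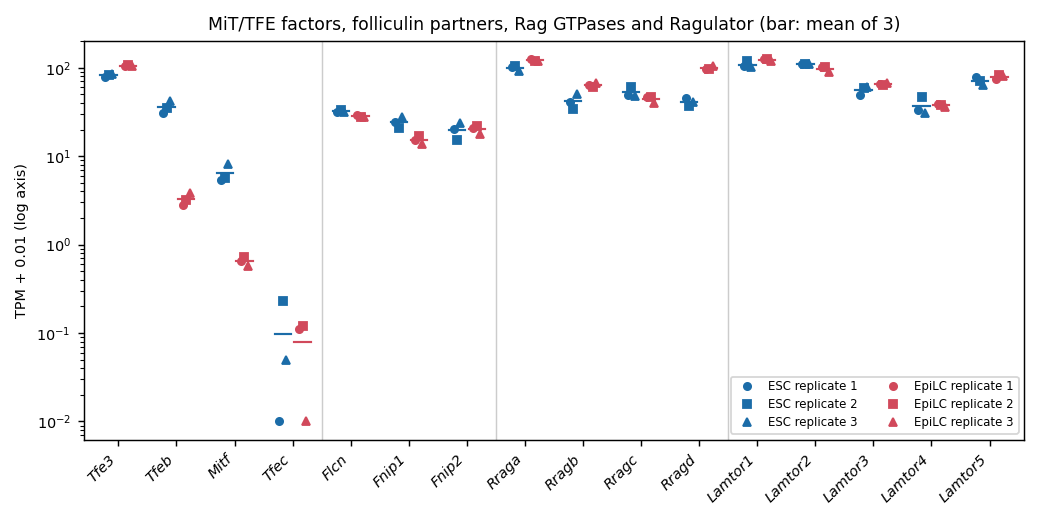
TPM of each regulator in each library, with 0.01 added so that zeros can be drawn on the log axis; blue is ESC, red is EpiLC, symbols are replicates and short bars are means of 3. Tfeb (35.9 against 3.27 TPM) and Mitf (6.42 against 0.640 TPM) separate widely between the groups, Rragd rises from 41.2 to 99.2 TPM, and the Ragulator genes lie close together.

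Esrrb, the naive factor whose expression TFE3 is known to help maintain in ESCs, was at 186, 208 and 295 TPM in ESCs, whereas EpiLCs had 2.55 to 3.01 TPM. Between the groups, Tfe3 RNA was thus higher where Esrrb RNA was lower, whereas among the ESC libraries replicate 1 had the lowest and replicate 3 the highest level of both.

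Of the folliculin genes, Flcn and Fnip1 fell. Flcn (chromosome 11, 59791408 to 59810039) encodes folliculin and was at 31.7, 32.9 and 31.6 TPM in ESCs and at 29.1, 27.6 and 27.7 TPM in EpiLCs. The groups did not overlap, but the fall was small (log2 fold change -0.23, standard error 0.07, adjusted p = 0.0262) and the call was lost without EpiLC replicate 1 (adjusted p = 0.0817), 2 (adjusted p = 0.11) or 3 (adjusted p = 0.0746).

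Fnip1 (chromosome 11, 54438107 to 54518241), which encodes a partner that stabilizes folliculin, fell from 24.1, 20.6 and 27.9 TPM to 15.3, 16.8 and 13.6 TPM. Its log2 fold change was -0.73 (standard error 0.13, adjusted p = 0.00462), and all 3 EpiLC libraries lay below the ESC libraries. Fnip2, which encodes the alternative partner, was at 15.1 to 23.9 TPM in ESCs compared with 17.6 to 21.8 TPM in EpiLCs, with overlapping groups (log2 fold change -0.03, standard error 0.17, adjusted p = 0.897). Fnip1 made up 55.4% ± 2.10 of the summed TPM of the pair in ESCs and 43.2% ± 0.668 in EpiLCs (SD, n = 3), so that the order of the pair turned over in all 3 EpiLC libraries. Without ESC replicate 2 the log2 fold changes were -0.22 for Flcn (adjusted p = 0.0383) and -0.83 for Fnip1 (adjusted p = 0.00166).

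The Rag GTPases act as pairs of RagA or RagB with RagC or RagD, and 3 of the 4 genes rose, against 22.6% of all genes, although the calls of Rraga and Rragb were lost in several fits without a library. Rragd (chromosome 4, 32982998 to 33022180), which encodes RagD and is a known target of MiT/TFE factors, was at 46.0, 36.7 and 40.7 TPM across the ESC replicates against 95.7, 97.2 and 105 TPM across the EpiLC replicates. It rose 2.32-fold (log2 fold change 1.22, standard error 0.09, adjusted p = 1.95e-04), and 92.7% of tested genes had a lower log2 fold change. Of the 34 tested genes it had the highest log2 fold change.

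Rragc, the paralog that encodes RagC, was at 49.7, 60.2 and 48.4 TPM in ESCs and at 47.0, 46.3 and 40.1 TPM in EpiLCs. Its log2 fold change was -0.30 (standard error 0.11, adjusted p = 0.0547), and it passed the threshold without ESC replicate 3 (adjusted p = 0.0432), with DESeq2 (adjusted p = 0.0264) and with RLE scaling in edgeR (adjusted p = 0.0493). Rragd made up 48.1%, 37.9% and 45.7% of the summed TPM of the RagC and RagD genes in the ESC replicates and 67.1%, 67.8% and 72.2% in the EpiLC replicates, without overlap.

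Rraga and Rragb encode RagA and RagB. Rraga was at 102, 106 and 91.6 TPM in ESCs and at 126, 120.1 and 120.2 TPM in EpiLCs (log2 fold change 0.24, standard error 0.07, adjusted p = 0.0274). Rragb was at 40.5, 34.3 and 50.5 TPM in ESCs and at 63.0, 60.5 and 67.6 TPM in EpiLCs (log2 fold change 0.55, standard error 0.15, adjusted p = 0.0208). The groups did not overlap for either gene, but the calls were near the threshold. Without ESC replicate 1, EpiLC replicate 1 or EpiLC replicate 3 the adjusted p was 0.0662, 0.105 and 0.0663 for Rraga and 0.0733, 0.0627 and 0.0701 for Rragb, and for Rraga it was 0.0578 without EpiLC replicate 2. Without ESC replicate 2 the log2 fold changes were 0.28 for Rraga, 0.43 for Rragb and 1.14 for Rragd, each past the threshold. With ESC replicate 3 as the only ESC library, that of Rragb was 0.25 and was not called (adjusted p = 0.0851). The summed level of the 4 Rag genes was 238, 237 and 231 TPM in ESCs and 332, 324 and 332 TPM in EpiLCs.

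**Figure D3:**
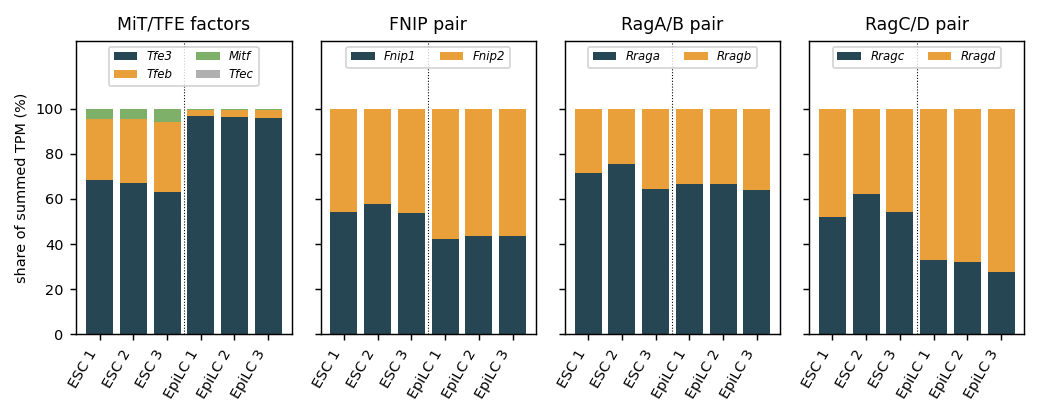
Share of each paralog in the summed TPM of its family or pair, in percent, for each ESC and EpiLC library. Tfe3 takes 62.9% to 68.4% of the MiT/TFE total in ESCs and 95.9% to 96.8% in EpiLCs, Rragd goes from 37.9% to 48.1% up to 67.1% to 72.2%, and the RagA and RagB shares overlap between the groups.

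Ragulator, the complex of the 5 LAMTOR proteins that anchors the Rag GTPases to the lysosome, gave 0 calls of 5 genes, against 45.4% of all genes called. At an unadjusted p of at most 0.05 edgeR counted 1 gene, Lamtor2, which was also the 1 gene called by DESeq2 (adjusted p = 0.0463). Lamtor1 was at 108 ± 8.53 TPM in ESCs compared with 122 ± 3.90 TPM in EpiLCs, Lamtor3 at 56.5 ± 6.24 and 65.2 ± 2.22 TPM, Lamtor4 at 36.9 ± 8.35 and 37.5 ± 1.73 TPM, and Lamtor5 at 70.5 ± 7.65 and 79.0 ± 3.87 TPM (SD, n = 3). Lamtor2, at 111 ± 1.28 and 97.6 ± 7.54 TPM, had the lowest log2 fold change of the complex (-0.23, adjusted p = 0.0648). Leaving out ESC replicate 2 also gave no call, with Lamtor1 at 0.19 (adjusted p = 0.0554) and Lamtor4 at 0.17. The summed level of the complex was 383 ± 19.3 TPM in ESCs compared with 402 ± 11.0 TPM in EpiLCs (SD, n = 3).

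Among 5 lysosomal membrane genes, 3 fell, against 22.8% of all genes. Lamp2 (chromosome X, 38399647 to 38456460), a heavily glycosylated protein of the lysosomal membrane that also serves in chaperone-mediated autophagy, was at 66.5, 87.3 and 61.3 TPM in ESCs and at 33.9, 34.4 and 29.1 TPM in EpiLCs (log2 fold change -1.22, standard error 0.12, adjusted p = 4.45e-04). Scarb2, the receptor that carries beta-glucocerebrosidase to lysosomes, was at 36.2, 38.2 and 38.3 TPM in ESCs and at 21.6, 23.1 and 17.6 TPM in EpiLCs (-0.91, standard error 0.10, adjusted p = 7.31e-04). Lamp1, the most abundant of these RNAs, fell less, from 428, 506 and 459 TPM to 372, 378 and 363 TPM (-0.38, standard error 0.07, adjusted p = 0.00541). Lamp2 and Lamp1 were highest in ESC replicate 2, and without it the log2 fold changes were -1.09 for Lamp2, -0.31 for Lamp1 and -0.90 for Scarb2, each past the threshold.

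The other two membrane genes were not called by edgeR. Mcoln1, a lysosomal calcium channel and known MiT/TFE target, was at 19.8 to 23.1 TPM in ESCs compared with 20.8 to 27.5 TPM in EpiLCs, with overlapping groups (log2 fold change 0.07, standard error 0.13, adjusted p = 0.684). Cd63, a tetraspanin of late endosomes, was at 163, 295 and 134 TPM in ESCs and at 129, 124 and 97.8 TPM in EpiLCs (-0.80, standard error 0.28, adjusted p = 0.0552). It was highest in ESC replicate 2, the library with the most fibroblast marker RNA, and its log2 fold change was -0.40 without that library (adjusted p = 0.0495) and -1.01 without ESC replicate 3 (adjusted p = 0.0177). DESeq2 called it with all libraries (-0.81, adjusted p = 0.00813).

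Cathepsins are the main lysosomal proteases, and 4 of the 5 genes fell, against 22.8% of all genes. Ctsa, a serine carboxypeptidase that also protects beta-galactosidase and neuraminidase, was at 43.0, 56.1 and 47.6 TPM in ESCs and at 21.3, 21.0 and 21.3 TPM in EpiLCs. It had the largest fall of the enzymes in the set (log2 fold change -1.26, standard error 0.11, adjusted p = 2.62e-04). Ctsl, a cysteine protease, was at 102, 111 and 83.0 TPM in ESCs and at 58.3, 59.3 and 51.2 TPM in EpiLCs (-0.86, standard error 0.11, adjusted p = 0.00119). Both were highest in ESC replicate 2, and without it Ctsa was at -1.15 (adjusted p = 1.85e-04) and Ctsl at -0.77 (adjusted p = 0.00153).

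Ctsd, the main aspartic protease of lysosomes, was at 253, 405 and 233 TPM in ESCs and at 177, 196 and 144 TPM in EpiLCs (log2 fold change -0.84, standard error 0.22, adjusted p = 0.0187). Ctsb, another cysteine protease, was at 39.2, 58.6 and 35.1 TPM in ESCs and at 28.4, 31.1 and 25.4 TPM in EpiLCs (-0.70, standard error 0.19, adjusted p = 0.0219). Both were highest in ESC replicate 2, and without it their falls were smaller but still called, at -0.55 for Ctsd (adjusted p = 0.00951) and -0.45 for Ctsb (adjusted p = 0.0096). Both calls were lost without EpiLC replicate 1 (adjusted p = 0.0593 for Ctsd and 0.0695 for Ctsb) or EpiLC replicate 3 (adjusted p = 0.0695 and 0.0795), and that of Ctsb also without EpiLC replicate 2 (adjusted p = 0.0505). Ctsz, a carboxypeptidase, overlapped between the groups at 68.6 ± 12.3 and 58.7 ± 3.52 TPM (SD, n = 3; log2 fold change -0.27, adjusted p = 0.130) and was called without ESC replicate 1 (-0.39, adjusted p = 0.0453). It was highest in ESC replicate 2, without which it was at -0.13 (adjusted p = 0.269).

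The enzymes that degrade glycogen, glycolipids and glycoproteins fell in 4 of 6 cases, against 22.8% of all genes, with the call of Gla less firm than the other 3. Gaa, which degrades glycogen, was at 35.2, 39.7 and 41.0 TPM in ESCs and at 16.5, 19.3 and 18.0 TPM in EpiLCs (log2 fold change -1.16, standard error 0.10, adjusted p = 2.31e-04). Hexa, the alpha subunit of beta-hexosaminidase, was at 59.1, 50.4 and 55.7 TPM and at 27.8, 29.3 and 25.9 TPM (-1.05, standard error 0.09, adjusted p = 2.66e-04). Glb1, lysosomal beta-galactosidase, was at 34.7, 34.3 and 40.2 TPM and at 22.0, 20.6 and 19.1 TPM (-0.88, standard error 0.10, adjusted p = 8.71e-04). None of these 3 genes was highest in ESC replicate 2, and without it their log2 fold changes were -1.14, -1.11 and -0.92.

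Gla, alpha-galactosidase A, fell by less, from 12.2, 14.1 and 10.4 TPM to 9.49, 8.67 and 9.61 TPM (log2 fold change -0.45, standard error 0.14, adjusted p = 0.0331), and its call was lost in 5 of the 6 fits that left out a library (adjusted p from 0.0561 to 0.118), among them the fit without ESC replicate 2 (-0.34, adjusted p = 0.0561), and was kept without ESC replicate 3 (adjusted p = 0.0135). Psap, the precursor of the saposins that assist lipid breakdown, was at 153, 194 and 132 TPM in ESCs and at 128, 137 and 119 TPM in EpiLCs, with overlap (-0.37, standard error 0.13, adjusted p = 0.0575), and was called without ESC replicate 3 (adjusted p = 0.0133) and with DESeq2 (adjusted p = 0.0197). It was highest in ESC replicate 2, without which it was at -0.21 (adjusted p = 0.0687). Neu1, the lysosomal sialidase, was at 6.12, 6.14 and 6.17 TPM in ESCs and at 7.89, 8.14 and 7.03 TPM in EpiLCs, the only enzyme of the set with a positive value (0.27, standard error 0.11, adjusted p = 0.0839). Of the 11 luminal enzymes and cofactors, 8 fell (72.7%) and 0 rose, against 22.8% and 22.6% of all genes, with a median log2 fold change of -0.84.

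Among the autophagy genes, Map1lc3b, which encodes the LC3B protein of the autophagosome membrane, was at 152, 172 and 166 TPM in ESCs and at 124, 127 and 118 TPM in EpiLCs (log2 fold change -0.47, standard error 0.07, adjusted p = 0.00204), and at a log2 fold change of -0.43 without ESC replicate 2. Sqstm1, the cargo adaptor p62, was at 236, 286 and 205 TPM in ESCs and at 202, 195 and 183 TPM in EpiLCs (-0.38, standard error 0.11, adjusted p = 0.0342). The lowest ESC value (205 TPM) lay close to the highest EpiLC value (202 TPM). The log2 fold change of Sqstm1 was -0.24 without ESC replicate 2 (adjusted p = 0.0333), and the call was lost without ESC replicate 1 (adjusted p = 0.0585) or EpiLC replicate 1, 2 or 3 (adjusted p = 0.075, 0.0971 and 0.109). Gabarapl1, a relative of LC3 in the same family, was at 40.1 ± 6.41 TPM in ESCs compared with 47.5 ± 3.13 TPM in EpiLCs (SD, n = 3), and its log2 fold change of 0.19 was not called (adjusted p = 0.229) but passed without ESC replicate 2 (0.31, adjusted p = 0.0419) and with only ESC replicate 3 (0.41, adjusted p = 0.0179).

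**Figure D4:**
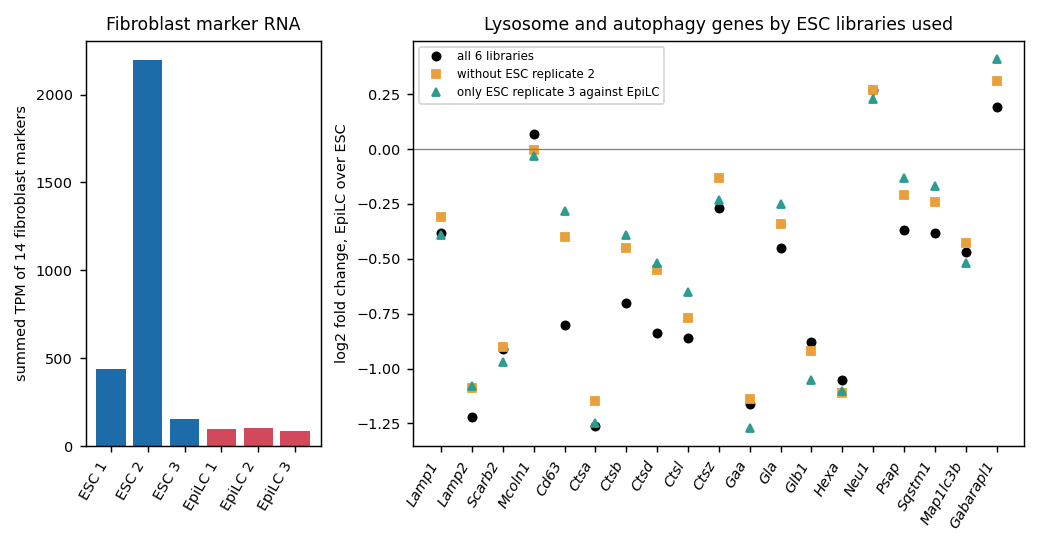
Left, summed TPM of 14 fibroblast markers in each library; right, log2 fold change (EpiLC over ESC) of the lysosomal and autophagy genes with all 6 libraries (black), without ESC replicate 2 (orange) and with only ESC replicate 3 against the 3 EpiLC libraries (green). Cd63, Ctsb and Ctsd move towards 0 when ESC replicate 2, at 2196 TPM of fibroblast markers, is left out, whereas Gaa (-1.16 and -1.14) and Hexa (-1.05 and -1.11) move little.

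ESC replicate 3 had the least fibroblast marker RNA (156 TPM). Compared with the 3 EpiLC libraries, this library alone gave log2 fold changes of -1.25 for Ctsa, -1.27 for Gaa, -1.10 for Hexa, -1.08 for Lamp2, -1.05 for Glb1 and -0.97 for Scarb2, and all 6 passed the threshold. Ctsb (-0.39) and Ctsd (-0.52) also passed it, whereas Cd63 (-0.28), Psap (-0.13), Gla (-0.25) and Sqstm1 (-0.17) did not. In this fit, added after the data were seen, the lone ESC library is assumed to vary like the EpiLC libraries. ESC replicates differed more from each other (chi-square per degree of freedom of 26.6 to 77.7 between pairs) than EpiLC replicates did (6.97 to 18.0), and the p-values of this fit may therefore be too small. Of the 35 genes, 19 had their highest ESC value in replicate 2, the library with the most fibroblast marker RNA. In all genes tested, 37.5% had their highest ESC value in replicate 2.

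The promoters of the lysosomal genes are shown because MiT/TFE factors are known to bind the E-box CACGTG near the starts of such genes. RefSeq windows of 300 bases, 250 before and 50 after the start on GRCm38.p6, were matched for 33 of the 35 genes, with some genes having several windows. On either strand, CACGTG was present in 13 of the 33 genes (39.4%), against 8.09% of 27025 genes with a window. Among the other lists described below, the share was 30.8% for V-ATPase subunits, 29.4% for transporters and sorting and 17.9% for other hydrolases. CACGTG was present in 14.8% of other autophagy genes and 9.52% of mTORC1 and nutrient-sensing genes with a window. Its extended form TCACGTG, which overlaps it, was present in 12 (36.4% against 4.29%), and the M-box TCATGTG in 5 (15.2% against 4.31%). The set was assembled from genes with known roles in this pathway, some of which are known targets, so these shares are a description of the list. The windows of 5 genes are printed 5′ to 3′ along the gene with each CACGTG in capitals: those of Ctsa, Gla and Lamp1, which fell, Rragb, which rose, and Mcoln1, which was not called. Ctsa has 2 windows, and the one at the upstream start (chr2:164832622-164832921) holds no CACGTG, so the downstream window is printed. The window of Rragb lies at a start downstream of the gene's first listed base.

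Ctsa (chr2:164833523-164833822, plus strand): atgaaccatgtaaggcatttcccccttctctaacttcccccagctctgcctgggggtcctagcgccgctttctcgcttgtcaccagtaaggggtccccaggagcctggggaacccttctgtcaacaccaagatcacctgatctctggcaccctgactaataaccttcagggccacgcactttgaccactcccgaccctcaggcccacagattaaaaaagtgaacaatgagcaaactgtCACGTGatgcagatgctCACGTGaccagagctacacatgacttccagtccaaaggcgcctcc

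Gla (chrX:134600956-134601255, minus strand): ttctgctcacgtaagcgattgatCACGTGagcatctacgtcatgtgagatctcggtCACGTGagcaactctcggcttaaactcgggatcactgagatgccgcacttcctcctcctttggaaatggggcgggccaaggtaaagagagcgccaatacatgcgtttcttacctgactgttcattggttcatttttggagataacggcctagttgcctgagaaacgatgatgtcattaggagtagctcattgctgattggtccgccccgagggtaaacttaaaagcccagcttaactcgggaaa

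Lamp1 (chr8:13158911-13159210, plus strand): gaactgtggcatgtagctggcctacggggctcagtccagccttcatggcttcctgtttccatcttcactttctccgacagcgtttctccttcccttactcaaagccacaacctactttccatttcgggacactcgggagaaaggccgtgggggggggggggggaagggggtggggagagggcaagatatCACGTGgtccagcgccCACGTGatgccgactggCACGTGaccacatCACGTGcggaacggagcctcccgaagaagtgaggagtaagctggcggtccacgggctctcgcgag

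Rragb (chrX:153139708-153140007, plus strand): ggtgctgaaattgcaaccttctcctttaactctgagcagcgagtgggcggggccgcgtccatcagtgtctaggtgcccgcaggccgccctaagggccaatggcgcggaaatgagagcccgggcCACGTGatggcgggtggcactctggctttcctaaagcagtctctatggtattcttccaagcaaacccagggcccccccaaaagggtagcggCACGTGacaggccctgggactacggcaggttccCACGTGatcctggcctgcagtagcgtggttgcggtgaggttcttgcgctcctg

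Mcoln1 (chr8:3500269-3500568, plus strand): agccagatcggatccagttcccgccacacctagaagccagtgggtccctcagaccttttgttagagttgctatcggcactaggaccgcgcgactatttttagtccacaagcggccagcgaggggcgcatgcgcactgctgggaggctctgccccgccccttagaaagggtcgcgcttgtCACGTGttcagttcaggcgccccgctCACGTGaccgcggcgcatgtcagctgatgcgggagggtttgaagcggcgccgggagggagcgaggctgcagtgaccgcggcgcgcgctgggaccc

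With 0 at the first transcribed base, CACGTG began at -61, -45, -28 and -15 in Lamp1, at -127, -36 and -3 in Rragb, at -71 and -45 in Mcoln1, at -12 and 5 from the downstream start of Ctsa and at -227 and -194 in Gla. By call, the E-box was present in 8 of 16 genes that fell, in 4 of 12 that were not called and in 1 of 4 that rose. The share over all genes with a window was 8.09%. These counts are small, and a link between the motif and the calls was not tested. The genes that fell with an E-box were Fnip1, Lamp1, Ctsa, Ctsd, Ctsl, Gaa, Gla and Glb1. Tfeb, Mitf, Tfe3, Flcn and Rragd had no CACGTG in their windows, which says only that these letters are absent from these windows.

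Of 36 other lysosomal hydrolases and cofactors tested, 21 fell (58.3%) and 1 rose (2.78%), against 22.8% and 22.6% of all genes, with a median log2 fold change of -0.54. The counts were 18 and 1 without ESC replicate 2, with a median of -0.49, and 11 fell without EpiLC replicate 1 and 13 without EpiLC replicate 3. Among those that fell were Manba, beta-mannosidase, from 31.0, 44.2 and 51.6 TPM to 4.71, 4.28 and 6.30 TPM (-3.11, standard error 0.24, adjusted p = 2.07e-04), and the cathepsin gene Ctso (-2.30, adjusted p = 0.00788). Ctso was low throughout, at 1.39, 2.29 and 0.660 TPM in ESCs and at 0.320, 0.260 and 0.320 TPM in EpiLCs, with 14 to 63 counts. Its highest value was in ESC replicate 2, the library with the most fibroblast marker RNA. The gene that rose was Ppt2, a palmitoyl-protein thioesterase (0.60, adjusted p = 0.00690).

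Of 22 lysosomal transporter and sorting genes tested, 7 were lower (31.8%) and 2 higher (9.09%), against 22.8% and 22.6% of all genes, with a median log2 fold change of -0.11. They were again 7 and 2 without ESC replicate 2, with a median of -0.07. The lower count was 4 without EpiLC replicate 2 or 3. The higher count was 1 without ESC replicate 1, EpiLC replicate 1 or EpiLC replicate 2. The largest falls were those of Cd68 (-1.01, adjusted p = 0.00780), Igf2r, the receptor that sorts enzymes tagged with mannose 6-phosphate (-0.88, adjusted p = 0.00147), and Ostm1 (-0.61, adjusted p = 0.00454). Sort1, which encodes the alternative sorting receptor sortilin, rose from 15.1, 12.0 and 17.3 TPM to 35.4, 33.9 and 29.4 TPM (1.10, standard error 0.14, adjusted p = 0.00135), and Pqlc2, a lysosomal amino acid exporter, rose as well (0.62, adjusted p = 0.0296).

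The V-ATPase, the proton pump that acidifies lysosomes, had 3 of 18 tested subunit genes lower (16.7%) and 4 higher (22.2%), against 22.8% and 22.6% of all genes, and the median log2 fold change was -7.4e-04. The counts were 2 lower and 5 higher without ESC replicate 2, and the lower count was 1 without EpiLC replicate 1, 2 or 3. Falls were small and were those of Atp6ap2 (-0.38), Atp6v1h (-0.33) and Atp6v0d1 (-0.30). The largest rises were those of Atp6v1g2 (1.05, adjusted p = 0.0138), Atp6v0e2 (0.96, adjusted p = 0.00753) and Atp6v0a1 (0.51, adjusted p = 0.00718). Atp6v1g2 and Atp6v0e2 were low, at 2.04 and 15.2 TPM on average in EpiLCs. The summed level of the pump was 1445 ± 58.7 TPM in ESCs compared with 1478 ± 66.6 TPM in EpiLCs (SD, n = 3).

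Of 33 other autophagy genes, 15 fell (45.5%) and 3 rose (9.09%), against 22.8% and 22.6% of all genes, with a median log2 fold change of -0.33. Leaving out ESC replicate 2 gave 14 and 2. The kinase gene Ulk1, which starts autophagosome formation and is a substrate of mTORC1, had a mean of 85.3 ± 13.6 TPM in ESCs against 18.6 ± 2.27 TPM in EpiLCs (SD, n = 3; -2.25, standard error 0.14, adjusted p = 1.06e-04). Its partner Atg13 fell as well (-0.95, adjusted p = 2.14e-04), as did Wipi1 (-1.38, adjusted p = 0.00219), which binds phosphoinositide on forming autophagosomes. The rises were those of Optn, a cargo receptor (0.72, adjusted p = 0.00188), Atg4d (0.34, adjusted p = 0.0419) and Wipi2 (0.27, adjusted p = 0.00845).

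Genes of mTORC1 and its nutrient sensors gave 4 lower (15.4%) and 5 higher (19.2%) of 26 tested, against 22.8% and 22.6% of all genes, with a median log2 fold change of 0.01. Leaving out ESC replicate 2 gave 5 and 5, and the lower count was 0 without EpiLC replicate 1, 1 without EpiLC replicate 3 and 8 with only ESC replicate 3. The largest falls, each small, were those of Wdr59 (-0.42), Slc3a2 (-0.40) and Mtor (-0.37). The largest rises were those of Sesn3 and Sesn1, which encode sestrins that restrain mTORC1 (1.00, adjusted p = 3.47e-04, and 0.84, adjusted p = 0.00378), and Slc38a9, the arginine sensor of the lysosomal membrane (0.68, adjusted p = 0.0122).

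**Figure D5:**
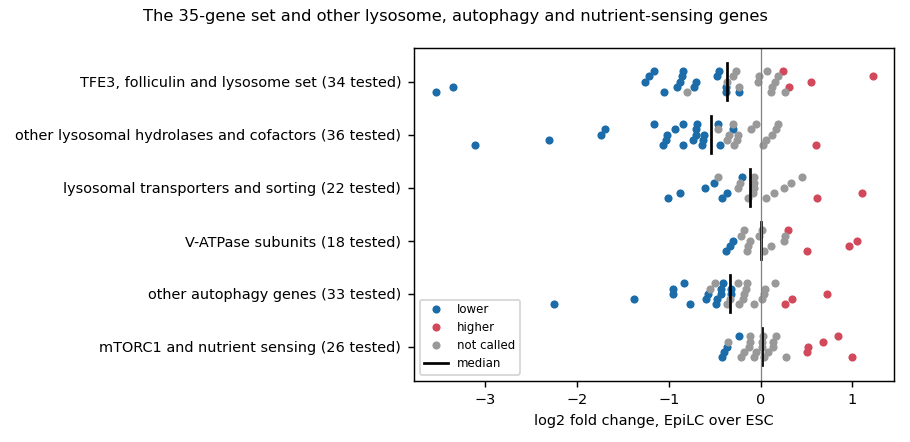
Log2 fold change (EpiLC over ESC) of each tested gene in the 35-gene set and in 5 other lists, with one point per gene, coloured by whether it was lower, higher or not called, and a black bar at the list's median. The median is -0.37 for the set and -0.54 for other hydrolases, and lies at -7.4e-04 for V-ATPase subunits and 0.01 for mTORC1 and nutrient-sensing genes.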

How the data were processed

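RNA was measured in 3 ESC and 3 EpiLC libraries of WT cells, grouped by their titles, and the replicate libraries were distinct in their counts. The authors prepared stranded polyA libraries, trimmed single-end reads with cutadapt 1.16 and used STAR 2.5.2a with RSEM 1.3.0 to obtain per-gene values against RefSeq genes on mm10. They deposited, for each library, the expected counts (estimated reads per gene, which share ambiguous reads between genes) and TPM. TPM values deposited by the authors are used here for levels, shares and sums.

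Expected counts were rounded to whole numbers, genes with low counts were removed with filterByExpr, leaving 14468, and the groups were compared with TMM normalization and the quasi-likelihood test of edgeR 4.0.16 (under R 4.3.3) with Benjamini-Hochberg adjustment over those genes and a threshold of 0.05. The study itself used DESeq2 1.16.1. Library totals ran from 16967741 to 35096210, at which 3 counts correspond to 0.0855 to 0.177 CPM. This floor covers counting error only. Log2 fold changes are EpiLC over ESC with their standard error. P-values measure the spread between these replicate cultures of 1 line. Counting used strand, and of the 34 tested genes only Glb1 had a count that was not whole. Fits were checked on simulated data with 197 changed genes among 14300 tested. There edgeR recovered 93.3% of 4-fold and 49.1% of 2-fold changes and called 10 unchanged genes. DESeq2 recovered 92.1% and 64.8% and called 42 unchanged genes. A gene that was not called may therefore still have changed.

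The 35 genes and the other lists were chosen with earlier results of these data known. All 35 are named, and from each other list the called genes with the largest rises and falls, up to 3 in each direction, except 1 result that is not reported here. Alternatives were DESeq2 1.42.0, upper-quartile and RLE scaling, no filter, at least 10 counts in every library, limma 3.58.1 on log2(TPM + 1) and log2(TPM + 0.1), a replicate block, each library left out, the 100 bases before the start for promoters and, added after the data were seen, ESC replicate 3 alone against EpiLCs. The culture time of 48 h is that of the labels, and the culture methods give a longer time for the EpiLC protocol.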

Additional observations from a re-analysis of the deposited data

How the results depend on the processing

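The calls of Tfe3, Tfeb, Mitf, Fnip1, Rragd, Lamp1, Lamp2, Scarb2, Ctsa, Ctsl, Gaa, Glb1, Hexa and Map1lc3b kept their direction and passed the threshold in all alternatives run. No scaling alternative shifted the all-gene median by more than 0.1 (log2). With each library left out in turn, the 35 genes gave 12 to 20 lower and 2 to 5 higher calls, with a median of -0.41 to -0.24, and all genes gave 2100 to 3609 lower and 2144 to 3572 higher calls. Lower and higher calls then ranged over 11 to 24 and 1 to 1 for other hydrolases, 4 to 8 and 1 to 3 for transporters, 1 to 3 and 3 to 5 for the V-ATPase, 11 to 17 and 2 to 3 for other autophagy genes, and 0 to 5 and 3 to 6 for mTORC1 genes. The fewest lower calls among the 35 genes (12) came without EpiLC replicate 1 or 3. Only 2 of them were higher without ESC replicate 1, EpiLC replicate 1 or EpiLC replicate 3. Without EpiLC replicate 1 came the lowest counts for all genes, for lower hydrolases (11; 13 without EpiLC replicate 3) and for lower mTORC1 genes (0; 1 without EpiLC replicate 3). Leaving out any EpiLC library left 1 lower V-ATPase gene, and leaving out EpiLC replicate 2 or 3 left 4 lower transporters.

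With limma at either pseudocount the median of the 35 genes was -0.31, and 2 other hydrolases rose instead of 1. With only ESC replicate 3 the median was -0.26, 4 other hydrolases rose, and 5 V-ATPase and 8 mTORC1 genes fell. Of the 33 genes with a promoter, 8 (24.2%) held CACGTG within the 100 bases before the start, against 3.70% of all genes. In this window the share was 23.5% for transporters, 17.9% for other hydrolases and 7.41% to 9.52% for the remaining lists.

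Uncalled genes near 0 changed sign. Fnip2 was at 0.04 with limma at either pseudocount, 0.05 without EpiLC replicate 3 and -0.19 to 0.15 over all fits without a library. Lamtor4 was at 0.0055 with upper-quartile scaling, 0.04 and 0.05 with limma at pseudocounts of 1 and 0.1, 0.20 with only ESC replicate 3, 0.01 without EpiLC replicate 3 and -0.13 to 0.17 over the fits without a library. Mcoln1 was at -0.03 with only ESC replicate 3, -0.0032 without ESC replicate 2 and -0.03 to 0.16 over the fits without a library. The cause was not tested. Flcn missed the threshold with no filter (adjusted p = 0.0531) and with limma (0.0581 and 0.0589), as did Gla (0.0633 and 0.0589) and Sqstm1 (0.0628 and 0.0603) with limma.

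Same-numbered libraries deviated together with correlations over genes of 0.00668, 0.186 and 0.17, and differently numbered libraries with -0.215 to 0.0836. The values for replicates 2 and 3 were thus the highest of all pairs. The main fit did not take the numbers to pair the samples, and a fit with a replicate block was an alternative. With a replicate block, 6085 genes were called instead of 6571 (5828 by both), 20 of the 35 genes were called (18 by both), and 1 V-ATPase gene fell. Calls lost under the block were those of Flcn (adjusted p = 0.0731), Rraga (0.0576) and Gla (0.0683), and those gained were Cd63 (0.0312) and Psap (0.0276).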
